A study of Xenopus tropicalis with 9 samples.

Results

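The comparison set 1 heart library of an adult female western clawed frog, Xenopus tropicalis, beside 1 heart library of an adult male, out of 9 libraries from adult tissues. All members are these 2 libraries, and every gene was measured in both. Qiagen kits were used to isolate total RNA from each organ, and Kapa reagents turned its mRNA into Illumina libraries. The labels tell the tissue and the sex. Titles of the head and ovary libraries say adult and those of the hearts do not, and the hearts are taken as adult here. No strain, treatment, heart chamber or number of animals is stated in the labels. Levels of the same genes in female lung and female ovary were used to separate genes that those organs also express highly from cardiac genes. Head, testes, intestine and GI tract libraries served as reference levels. With 1 library per sex there is no replicate check, so no p-value is given, and a difference between the hearts may belong to these libraries or animals and not to the sexes.

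The working heart is mainly muscle. Its cells carry sarcomeres of actin, myosin, troponin and titin, a calcium store that is emptied and refilled at each beat, and many mitochondria. Atrial and ventricular muscle also secrete natriuretic peptides. A growing frog oocyte, by contrast, is a store of maternal mRNA for egg coat proteins, germ plasm, cyclins, replication factors and translational regulators, most of which a resting adult body cell uses little.

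The hearts were sequenced to similar depth, 33530721 counts in female heart and 34202200 in male heart, within the range of 27628254 to 35044545 over the 9 libraries. Both carried the 9 markers of cardiac muscle found in the table at higher levels than any of the other 7 libraries. The atrial myosin light chain gene myl7 stood at 19795 TPM (transcripts per 1000000) in female heart and 28174 TPM in male heart, and its next level was 180 TPM in female lung. Cardiac troponin I (tnni3) stood at 5750 and 9143 TPM, against 38.1 TPM in lung. The defining markers of fast skeletal muscle, tnnc2, tnnt3 and mylpf, were near 0, with tnnc2 at 1.26 and 0.51 TPM. Not every skeletal muscle gene was that low. The sarcomere gene actn3 stood at 74.7 TPM in female heart and 351 TPM in male heart. The whole skeletal muscle list summed to 86 and 382 TPM. The liver marker fga was at 0 in both hearts.

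Transcripts were far from evenly matched between the hearts. Of 14594 genes with at least 1 TPM in either heart, 2997 (20.5%) were at least 4-fold higher in female heart and 878 (6.02%) at least 4-fold higher in male heart, as the ratio of TPM + 1. Together 3875 genes (26.6%) passed that fold in either direction. The median log2 ratio over all 14594 genes was 0.41, with quartiles of -0.89 and 1.70. Female-higher genes were 77.3% of those past 4-fold in TPM. They were 59.9% after TMM scaling of the counts, 44.7% after DESeq2 size factors, and 86.4% in TPM rescaled over the genes that are neither ovary-high nor lung-high. The median of all genes stood at 0.28, -0.26 and 0.76 on those 3 scales. TMM and DESeq2 values also use a prior count of 2 in place of the pseudocount of 1 TPM. In TPM, a pseudocount of 0.1 alone gave 66.2%. The balance of the directions thus depends on the scaling and the pseudocount together, and their parts were not separated.

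A gene was called ovary-high or lung-high when that library held at least 10 TPM and at least 4 times the level (TPM + 1) of male head, intestine and GI tract each, a rule that uses no heart library. Of the 2997 female-higher genes, 1777 (59.3%) fell in these classes. That is 241 of the 995 genes that were ovary-high only, 903 of the 1191 that were lung-high only, and 633 of the 687 that were both. The other 1220 were in neither class, out of 11721 such genes measured. Of the 878 male-higher genes, 57 were in the classes and 821 in neither. The classes took 30.6% of the counts in female heart (95% Wilson interval 30.58 to 30.61, which covers counting error only) and 8.86% in male heart, beside 30.9% in female lung, 70.2% in ovary, 6.63% in the head of a female and 4.6% in that of a male.

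**Figure D1:**
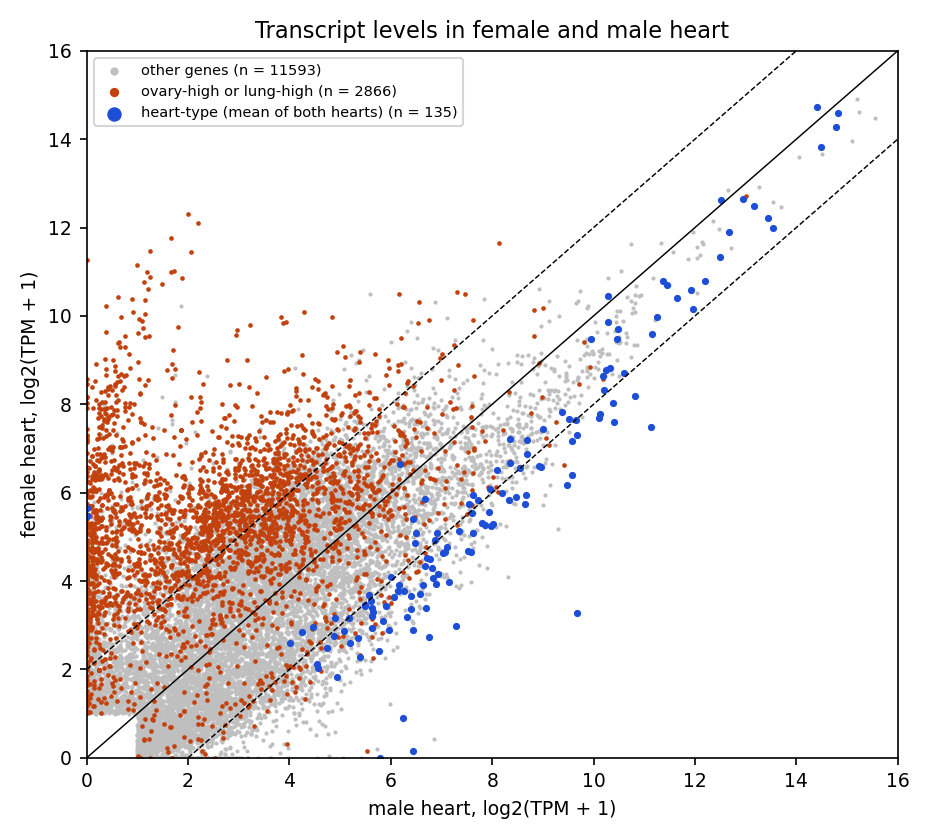
Levels of 14594 genes in male heart (x axis) and female heart (y axis), both as log2(TPM + 1), 1 library each. Orange points are ovary-high or lung-high genes, blue points are heart-type genes (defined by the mean of both hearts) and grey points are other genes; the solid line marks equal levels and the dashed lines 4-fold differences. Most orange points lie above the upper dashed line, and most blue points lie below the solid line, with asb18, hspb7 and some genes without a symbol above it.

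Cardiac genes were mostly lower in female heart. Among 103 measured genes of 4 cardiac lists, 39 were at least 4-fold higher in male heart and 0 in female heart, and the median log2 ratio was -1.67. Leaving out the 14 that were ovary-high or lung-high, 38 of 89 were male-higher with a median of -1.86. The genes left out include myl7, tnni3, nppa and myh15, with log2 ratios of -0.51, -0.67, -0.58 and -1.33. Lung passed the class limit for them at levels far below the hearts, such as 180 TPM of myl7 against 19795 TPM in female heart. The class therefore does not mark them as lung genes. Heart-type genes, whose mean over both hearts was at least 10 TPM and at least 4 times every other library, gave 78 of 135 male-higher, 3 female-higher and a median of -2.20. That rule uses the hearts it compares, so a gene could pass through 1 heart alone, as fat1 did at 0.86 TPM in female heart and 74.5 TPM in male heart. The heart-type counts and medians are therefore partly fixed by the choice of genes and are given as a description. The 3 female-higher members are genes without a symbol, each at 0 in male heart. They had 143, 143 and 46 counts in female heart, and the first 2 had identical values.

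TPM is a share of all transcripts, and the ovary-high and lung-high genes took a larger share in female heart. Rescaling TPM over genes in neither class multiplied female heart by 1.470 and male heart by 1.134. The median of the 89 cardiac genes was then -1.51 and that of the heart-type genes -1.85. On the count-based scales, which also use a prior count in place of the pseudocount, they moved the other way. They were -2.16 and -2.44 with TMM and -2.71 and -2.98 with DESeq2 size factors. Heart-type genes took 9.29% of counts in female heart and 22.1% in male heart. The part of the other genes' larger share in the cardiac difference was not tested beyond these scalings. In bulk libraries fewer cells of a type and less RNA per cell cannot be told apart.

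Sarcomere genes spanned the widest range of levels. Skeletal alpha actin (acta1), which amphibian hearts also express, stood at 30855 TPM in female heart and 37597 TPM in male heart. The ventricular-type light chain myl3 stood at 24802 and 28757 TPM. Their log2 ratios of -0.29 and -0.21 were the smallest among the abundant members, and turned to 0.09 and 0.16 in the rescaled TPM. They were -0.48 and -0.41 with TMM and -1.02 and -0.95 with DESeq2 size factors. The Z disc protein gene tcap differed more, at 5638 and 13284 TPM. Tropomyosin 1 (tpm1), which winds along the thin filament, stood at 6087 and 11973 TPM. The alpha myosin heavy chain gene myh6, chosen after its values were seen, stood at 4084 and 11851 TPM, 2.90-fold higher in male heart. Its exact counting interval of 2.89 to 2.91 is narrow, because it covers counting error alone. Of 40 measured sarcomere genes 15 were male-higher, 39 had a ratio below 0 and the median was -1.86. Among them the slow-type myosin heavy chain myh7b, also chosen after its values were seen, had the lowest ratio, with 4.46 TPM in female heart and 65.4 TPM in male heart (log2 ratio -3.60).

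Heart hormones ordered themselves likewise. The natriuretic peptide genes nppa and nppb, whose products lower blood volume and pressure, stood at 1773 and 765 TPM in female heart against 2649 and 2262 TPM in male heart. The gene for corin, the protease that activates the nppa product, stood at 6.40 TPM against 85.9 TPM, which is 13.4-fold higher in male heart (exact counting interval 12.4 to 14.6). The apelin receptor gene aplnr stood at 5.27 and 19.9 TPM. Endothelin 1 (edn1), a vasoconstrictor made by endothelium, went the other way at 13.3 TPM in female heart and 3.02 TPM in male heart (log2 ratio 1.83), beside 19.7 TPM in lung. Of the 10 genes 3 were male-higher, and the median was -1.62.

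Transcription factors of the heart were lower in female heart in 26 of 28 cases, and 10 were male-higher (median -1.68). The homeodomain-only gene hopx stood at 200 TPM in female heart and 809 TPM in male heart. The bHLH factor hand2, needed for the ventricles, stood at 24.4 and 191 TPM (log2 ratio -2.92). The GATA factors gata6 and gata4 stood at 18.1 and 27.7 TPM in female heart, against 115 and 75.4 TPM in male heart. The heart field marker nkx2-5 stood at 10.8 and 47.8 TPM and did not exceed 0.36 TPM in any other library. Its log2 ratio was -2.05.

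Calcium handling and rhythm genes held some of the largest cardiac differences. The sodium-calcium exchanger gene slc8a1, which expels calcium after each beat, stood at 292 TPM in female heart and 1815 TPM in male heart. Phospholamban (pln), the brake on the calcium pump, stood at 194 and 1351 TPM. The pump gene itself, atp2a2, was close at 36.8 and 47.2 TPM. The potassium channel subunit kcnj5, part of the channel that slows the beat under vagal input, stood at 45.4 and 122 TPM. Of 25 measured genes 11 were male-higher, and the median was -1.57.

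Cardiac genes of at least 1000 TPM differed less than those between 10 and 1000 TPM. Leaving out the 7 heart-type genes that were also ovary-high or lung-high, 2 of 21 with a mean of at least 1000 TPM were male-higher, with log2 ratios from -3.65 to 0.30. Between 100 and 1000 TPM the count was 26 of 42 with a median of -2.33, and between 10 and 100 TPM it was 49 of 65 with a median of -2.40. Heart-type genes were chosen and grouped by the mean of both hearts. Their counts and medians by level are therefore partly fixed by that choice and are a description. The listed cardiac genes in neither class gave medians of -1.23 (12 genes), -2.29 (17 genes) and -2.16 (36 genes) over the same ranges of that mean. Under 10 TPM 5 of 24 were male-higher with a median of -1.32, close to that of the most abundant group, so the ratios did not fall steadily with level. Counts per TPM in male heart served as a measure of length, and genes with few counts in either heart were left out. Heart-type genes had medians of -1.84, -1.89, -2.37 and -2.59 over 4 groups from the lowest to the highest measure. The measure shares the male heart TPM with the ratio, and these genes were chosen through both hearts, so the trend is a description. Over genes in neither class the same groups gave -0.09, 0.33, 0.25 and -0.08. The part of transcript length in the cardiac difference was not tested.

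**Figure D2:**
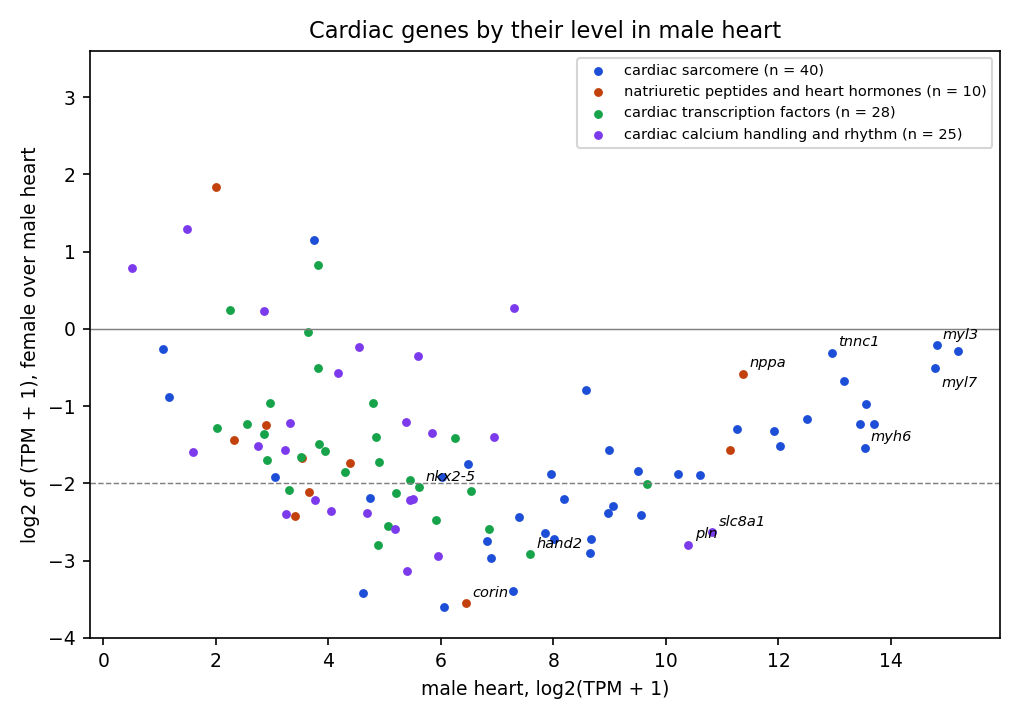
Log2 ratio of female over male heart (TPM + 1, y axis) of 103 cardiac genes against their level in male heart (log2(TPM + 1), x axis); each point is a gene and colours mark the 4 lists. The genes acta1 and myl3 at the right edge sit near 0, and slc8a1, pln, hand2 and corin sit below the dashed line at -2.

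By list median, genes of energy supply differed less than the sarcomere genes, whose median was -1.86. By summed level not all of them did. The sarcomere list summed to 116917 TPM in female heart and 184989 TPM in male heart. Mitochondrially encoded genes summed to 89626 and 172797 TPM, fatty acid oxidation genes to 2144 and 3960 TPM. Nuclear genes of mitochondrial oxidation summed to 21753 and 32968 TPM, glycolysis and creatine kinase genes to 33505 and 38445 TPM. All 13 mitochondrially encoded protein genes were lower in female heart, with a median log2 ratio of -1.08, and together they took 5.83% of counts there against 11% in male heart. The cytochrome oxidase subunit gene COX1 stood at 25092 TPM in female heart and 38787 TPM in male heart. Of 44 nuclear genes of mitochondrial oxidation 1 was male-higher, and the median was -0.80. The ATP synthase beta subunit gene atp5f1b stood at 3182 and 4541 TPM. Fatty acid oxidation genes had a median of -0.95, with 3 of 21 male-higher. Among those was the muscle carnitine palmitoyltransferase cpt1b, which admits fatty acids to the mitochondrion, at 95.6 and 410 TPM. Glycolysis and creatine kinase genes had a median of -0.11 in TPM (17 genes). That median turned to 0.26 in rescaled TPM and was -0.28 with TMM and -0.83 with DESeq2 size factors. Muscle creatine kinase (ckm) stood at 12327 and 17049 TPM, and gapdh at 7359 and 6449 TPM.

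The female-higher genes were led by cell cycle and oocyte genes. The 10 largest differences among genes with a symbol that were ovary-high or lung-high belonged to ccna1, ccnb2, cldn6.1, ccnb1.2, hist1h2aa, mkrn3, zp4, hist1h2am, eef1a1o and sox3. The germ cell cyclin gene ccna1 stood at 5094 TPM in female heart and 3.01 TPM in male heart, with 207870 and 132 counts (log2 ratio 10.31). That level exceeded the 2903 TPM of female lung and the 275 TPM of ovary. The same gene stood at 163 TPM in female head and 0.52 TPM in male head, at 273 TPM in testes, at 93.8 TPM in GI tract and at 0.26 TPM in intestine. So ccna1 was near 0 in male heart, male head and intestine and present in the other 6 libraries. Histone genes and tandem copies such as ccnb1 and ccnb1.2 share sequence, and their separate levels are uncertain.

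Among 118 measured genes of 6 oocyte and cell division lists, 102 were female-higher, 0 were male-higher and the median log2 ratio was 5.59. Of the 118, 98 were ovary-high or lung-high. Among the 20 in neither class 6 were female-higher, with a median of 0.68. The summed level of the lists was 45557 TPM in female heart, 5846 TPM in male heart, 31423 TPM in lung and 74532 TPM in ovary. In male heart 4009 TPM of that sum came from rbpms2, an RNA-binding protein gene that heart muscle also expresses, and 1092 TPM from the ribosomal protein gene rpl5. The 8 defining oocyte markers in the table, zp2, zp4, ddx4, dazl, gdf9, zar1, figla and bmp15, stood between 28.7 and 1366 TPM in female heart and between 0 and 1.74 TPM in male heart.

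Egg coat genes, which encode the zona pellucida glycoproteins around the egg, were female-higher in 6 of 7 cases. The most abundant, zp4, stood at 1366 TPM in female heart and 0.53 TPM in male heart, with 955 TPM in lung and 72.8 TPM in ovary. Next came zp3.2 at 371 and 0.12 TPM, and zpd at 113 and 0.08 TPM. The coat genes reached at most 0.53 TPM in male head for the 5 most abundant members. The members stood in another order in ovary, where zpd was at 399 TPM and zpy1, at 96.2 TPM in female heart, was at 0.55 TPM.

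Germ plasm and germ cell genes were female-higher in 13 of 15 cases (median 4.74). The translational repressor gene nanos1 had 7705 counts and 259 TPM in female heart and 0 counts in male heart, at least 2740-fold higher against a floor of 3 counts in that library. It stood at 195 TPM in lung and 3.53 TPM in ovary. The germ plasm organiser gene velo1 stood at 336 TPM in female heart, 0.34 TPM in male heart, 331 TPM in lung and 1298 TPM in ovary. The germ cell helicase ddx4 and the RNA-binding protein gene dazl stood at 72.2 and 66.0 TPM in female heart, 1.74 and 0.35 TPM in male heart, and 664 and 856 TPM in testes.

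Oocyte transcription factors and signals were female-higher in 9 of 10 cases. The oocyte linker histone h1foo stood at 626 TPM in female heart and 0.58 TPM in male heart. The maternal T-box factor vegt, which sets up endoderm in the frog embryo, stood at 242 and 0.32 TPM. The oocyte factor figla, which drives egg coat genes, had 64.8 TPM in female heart and 0 counts in male heart, at least 433-fold higher against the same floor. The growth factor gene bmp15, secreted by oocytes to the follicle, stood at 89.5 and 0.17 TPM. Each of the latter 3 was within 2-fold of its lung level, at 177, 86.5 and 96.7 TPM.

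Translation control genes of the maternal mRNA store split. Of 22, 14 were female-higher (median 3.85). Among the 9 that were neither ovary-high nor lung-high, 1 was female-higher (median -0.52). The oocyte form of elongation factor 1 alpha, eef1a1o, stood at 1875 TPM in female heart and 1.38 TPM in male heart. The deadenylation adaptor btg4, which clears maternal mRNA, stood at 1054 and 1.23 TPM, with 960 TPM in lung and 18969 TPM in ovary. The polyadenylation regulator cpeb1 stood at 923 TPM in female heart, 14.3 TPM in male heart and 17.7 TPM in ovary. Ovary thus held far more btg4 than female heart did, and far less cpeb1.

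Cell division genes gave the most uniform group. Of 34 genes of M phase cyclins and meiotic kinases 33 were female-higher, with a median log2 ratio of 7.08, and of 31 replication genes 28 were, with a median of 4.85. The mitotic kinase gene plk1 stood at 2060 TPM in female heart, 2.32 TPM in male heart, 1201 TPM in lung and 68.6 TPM in ovary. The oocyte kinase wee2, chosen after its values were seen, stood at 481 and 0.13 TPM in the hearts, at 241 TPM in lung and at 0.85 TPM in ovary. The replicative helicase subunit mcm7 stood at 821 and 6.78 TPM, and the licensing factors cdc6 and cdt1 at 783 and 441 TPM against 1.03 and 2.35 TPM.

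**Figure D3:**
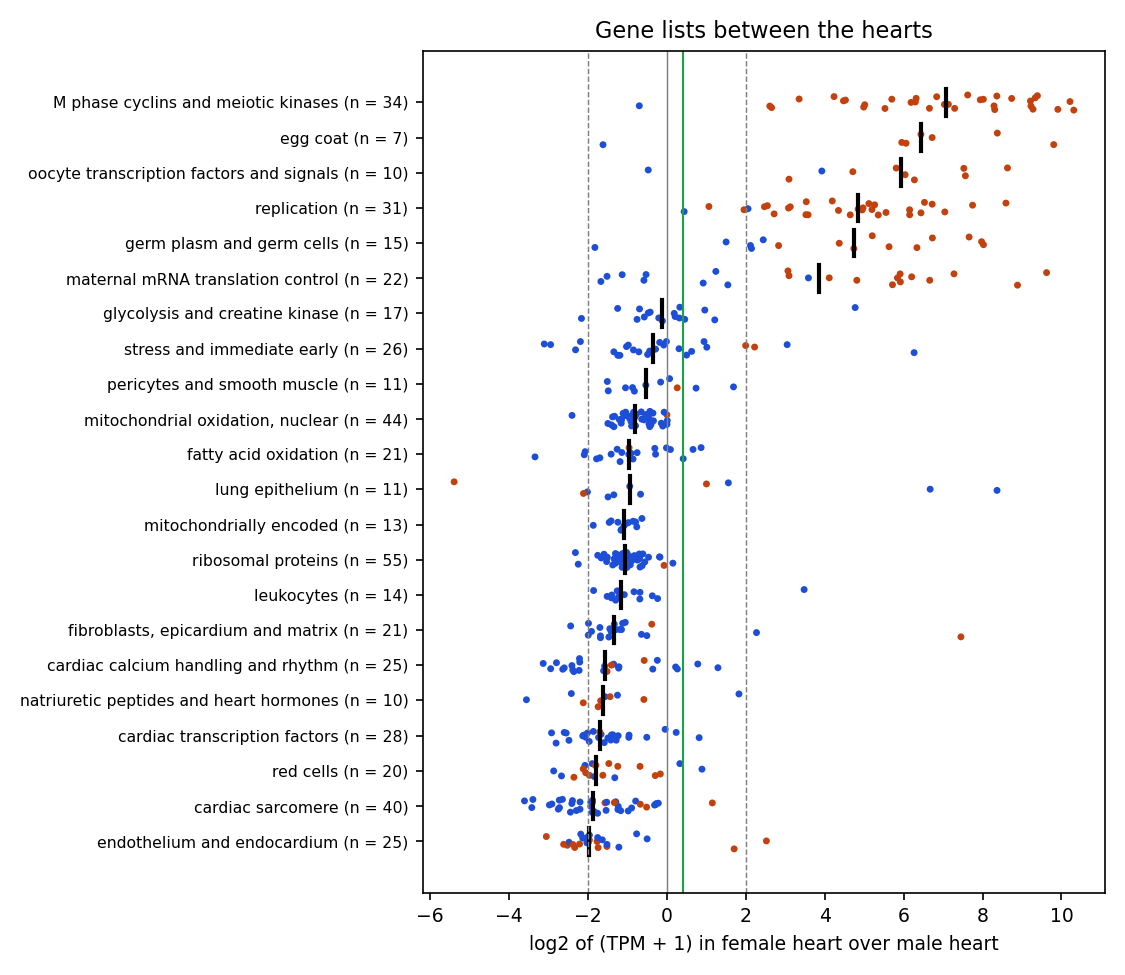
Log2 ratio of female over male heart (TPM + 1) for the measured members of 22 gene lists; each point is a gene, orange where ovary-high or lung-high and blue otherwise, and black bars are list medians. The green line is the median of all genes (0.41) and dashed lines mark 4-fold. The 6 oocyte and cell division lists lie at the right with medians from 3.85 to 7.08, and the cardiac, endothelial and red cell lists lie at the left.

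Across the 2997 female-higher genes the level in female heart lay close to that in female lung and not to that in ovary. Of them, 2831 (94.5%) were within 2-fold of lung, as were 10436 of all 14594 genes measured (71.5%). The median log2 ratio of female heart over lung was -0.21, with quartiles of -0.41 and 0.03. Against ovary 665 (22.2%) were within 2-fold, with a median of 1.61 and quartiles of -0.27 and 3.05. Over all 14594 genes 4693 (32.2%) were within 2-fold of ovary, with a median of 1.12. Among the 1777 in the classes, 665 (37.4%) stood at least 4-fold above their ovary level and 298 (16.8%) at least 4-fold below it. Over all genes these shares were 32.1% and 8.52%, so the first was near that of all genes. Of the 1777, 1711 (96.3%) were within 2-fold of lung. Of these 1777, 903 were lung-high only and 633 both, and all were chosen for a high level in female heart. Their values against lung and ovary are therefore partly fixed by the choice of genes and are a description. The 1220 in neither class were within 2-fold of lung in 1120 cases (91.8%). Lung and female heart thus held these genes in like amounts, and the source of the RNA in either library was not tested.

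Some of lung's own genes did not follow that pattern. The surfactant protein C gene sftpc, made by lung epithelium, stood at 15017 TPM in lung but at 0.11 TPM in female heart and 45.4 TPM in male heart. Surfactant protein B (sftpb) stood at 6437 TPM in lung, 21.7 TPM in female heart and 10.3 TPM in male heart. The lung transcription factor gene nkx2-1 stood at 25.4 TPM in lung and 0.04 TPM in each heart. Of 1909 lung-high genes female heart held at least 50% of the lung level in 1674 and under 10% in 130. Of those 130, 1 was also ovary-high, beside 669 of the 1674 and 687 of all 1909. In male heart the counts were 61 and 1275. The same shares over all genes were not counted.

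**Figure D4:**
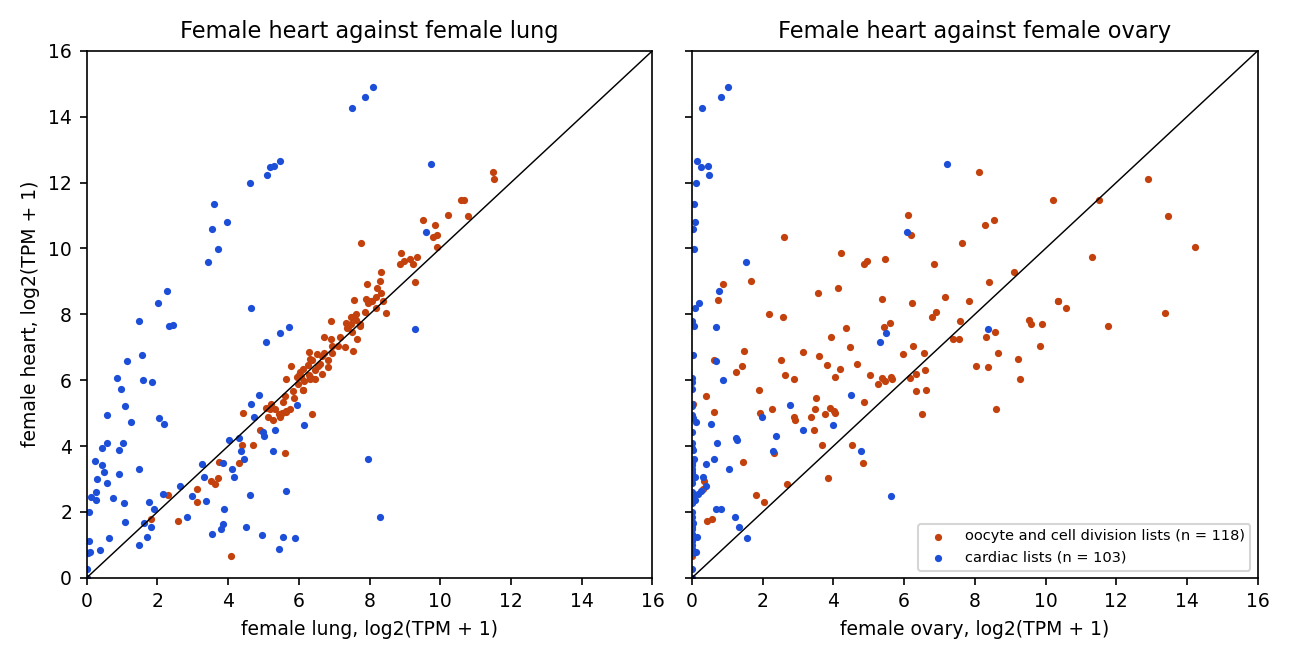
Level in female heart (y axis) against female lung (left, x axis) and female ovary (right, x axis), all as log2(TPM + 1), for 118 oocyte and cell division genes (orange) and 103 cardiac genes (blue); the line marks equal levels. Oocyte genes lie along the line against lung and scatter widely against ovary, and most abundant cardiac genes lie far above the line in both panels.

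Few female-higher genes departed from lung by 4-fold or more. In 30 of the 2997 (1%), lung was at least 4-fold below female heart, beside 239 of all 14594 genes (1.64%). In 11 (0.367%) lung was at least 4-fold above female heart, beside 1118 of all genes (7.66%). Among the 30, those with a symbol included the DNA glycosylase gene mutyh. It stood at 74.2 TPM in female heart, 0.87 TPM in male heart and 16.2 TPM in lung. The rnf207 gene, whose product binds a cardiac potassium channel in mammals, was at 14.2, 2.40 and 0.14 TPM. Both were chosen after their values were seen. The mutyh ratio rests on 503 and 44 counts, and by TMM-scaled counts its log2 ratio was 3.37 in place of 5.33.

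The largest female-higher differences in neither class included genes known from epithelia. Among the 10 largest with a symbol were krt18, tspan1, tfap2c, gpa33, cldn7, gpt2, epcam, tmem171 and cdo1. Keratin 18 (krt18), an intermediate filament of simple epithelia, stood at 1201 TPM in female heart and 2.64 TPM in male heart, 455-fold higher (exact counting interval 368 to 569). The adhesion protein gene epcam stood at 285 and 1.80 TPM, and the tight junction gene cldn7 at 405 and 2.33 TPM. In lung these 3 stood at 900, 317 and 411 TPM, and in male head at 125, 535 and 271 TPM. Ovary held them at 288, 397 and 7.41 TPM, so its level of epcam exceeded that of lung. They are in neither class because gut or head express them too. Both krt18 and epcam belong to the lung epithelium list and are its 2 female-higher members. Of the 11 measured genes of that list 3 were male-higher, 7 had a ratio below 0 and the median was -0.94.

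Other cells of a dissected heart were mostly lower in female heart as well. Endothelium and endocardium, the inner lining of vessels and chambers, had 11 of 25 genes male-higher, 1 female-higher and the lowest median of the 31 lists, at -1.96. Their summed level was 444 TPM in female heart and 533 TPM in male heart, with klf2 and sox7 going against the rest. The defining markers were all male-higher, with log2 ratios from -2.02 for kdr to -3.05 for egfl7. Among them cdh5, the endothelial cadherin gene, stood at 2.05 and 16.5 TPM, pecam1 at 2.50 and 17.2 TPM, and egfl7 at 4.04 and 40.7 TPM. The flow-responsive factor klf2 stood at 228 TPM in female heart, 38.7 TPM in male heart and 306 TPM in lung, and sox7 at 111, 33.3 and 175 TPM. Lung held more of the defining markers than either heart, with cdh5 at 56.2 TPM, so these genes did not share the lung-like level of the oocyte genes.

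Smooth muscle and pericyte genes were nearer to each other (11 genes, none past 4-fold, median -0.53). Smooth muscle actin (acta2) stood at 1637 TPM in female heart and 1822 TPM in male heart. Fibroblast, epicardial and matrix genes had a median of -1.33, with 2 of 21 female-higher and 1 male-higher. Collagen genes col1a1 and col3a1 stood at 208 and 79.2 TPM against 325 and 316 TPM. One of the female-higher members was upk1b, an epicardial and urothelial membrane protein gene, at 223 and 0.28 TPM; it also stood at 191 TPM in lung and 132 TPM in ovary and was chosen after its values were seen. Leukocyte genes were low in both hearts, with ptprc, the pan-leukocyte CD45 gene, at 1.64 and 2.40 TPM, and 1 of 14 was female-higher. That was blnk, a B cell adaptor gene, at 42.0 and 2.85 TPM.

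Red cell genes were male-higher in 6 of 20 cases (median -1.80). Nucleated red cells of frogs keep globin mRNA. The most abundant globin in the hearts, hbg1, was nearly level at 6716 TPM in female heart and 8216 TPM in male heart. The others differed more, with hba3 at 133 and 556 TPM and the haem synthesis gene alas2 at 68.7 and 269 TPM. Between the heads the list stood the other way round, with a median log2 ratio of female over male of 2.33. There 11 genes were at least 4-fold higher in female head, and the share over all genes was not counted. Thrombocyte genes had 2 of 6 male-higher (median -1.63). Globin genes are near-identical copies in part, and their separate levels are uncertain.

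Among genes with a symbol, the male-higher ones in neither class were led by tex11 and sccpdh.2. The meiotic gene tex11, known from crossing over in mouse spermatocytes, stood at 114 TPM in male heart and 0.34 TPM in female heart, with 6451 and 18 counts, 335-fold higher in male heart (exact counting interval 212 to 565). It stood at 48.5 TPM in testes and 2.83 TPM in male head and at no more than 0.19 TPM in the other 5 libraries. The saccharopine dehydrogenase-like gene sccpdh.2 had 1704 counts in male heart and 0 in female heart, at least 533-fold higher against the floor. It stood at 41.4 TPM in male heart, 22.2 TPM in male head and 92.7 TPM in testes, and at most 0.24 TPM in a female library. In all, 13 of the 878 male-higher genes were under 0.5 TPM in every female library. Female-higher genes under that level in every male library were not counted, so the 13 lack that comparison. Among the 13, tex11, sccpdh.2 and 2 known only by codes, LOC101731355 and LOC105948501, were also at 1 TPM or more in male head and testes. Whether these follow sex or the animal sampled cannot be told apart with 1 library each.

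The next in rank with a symbol were fat1, tnfrsf12a, adh1c, abcc12, ctsl, ctgf, cd28 and lamb2. The matrix-associated growth factor gene ctgf stood at 630 TPM in male heart, 35.1 TPM in female heart and 174 TPM in lung. Laminin beta 2 (lamb2), a basement membrane chain of muscle and vessels, stood at 107 and 5.69 TPM, and the lysosomal protease cathepsin L (ctsl) at 317 and 16.2 TPM. The alcohol dehydrogenase gene adh1c had 1080 counts in male heart and 1 in female heart, a ratio of 884 with a counting interval of 158 to 34941. For fat1, a giant cadherin gene, and the T cell receptor partner cd28 the ratio depended on the unit, with log2 ratios of -5.34 and -4.02 in TPM and -3.18 and -2.35 in TMM-scaled counts.

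Gonadal genes were not simply female. Follicle cell and sex steroid genes had 3 of 13 male-higher and 1 female-higher (median -0.96). The defining follicle cell genes foxl2, amh and cyp19a1 were under 1 TPM in both hearts. Ovary itself held them at 0.11, 0 and 0.34 TPM, so they cannot tell whether a library held follicle cells. The remaining defining marker, fshr, was at 0 in ovary and is given below. The inhibin alpha gene inha, a hormone subunit of gonads, stood at 164 TPM in male heart and 17.4 TPM in female heart, beside 291 TPM in testes and 0 in ovary. The gonadotropin receptor genes lhcgr and fshr stood at 29.8 and 11.8 TPM in male heart and at 1.37 and 0.78 TPM in female heart. For these 3 male heart held more than any female library. Sperm genes showed no gene past 4-fold among 7 and meiotic genes 1 among 5, which was tex11. Over all genes 26.6% passed that fold in either direction. The follicle, sperm and meiotic lists are too short to be told apart from that share. Of 1212 testes-high genes measured, 527 (43.5%) were female-higher and 20 (1.7%) male-higher, beside 20.5% and 6.02% of all genes. Among the cell division genes named above, ccnb1.2, mcm7 and cdc6 were testes-high, and ccna1, ccnb2, ccnb1, plk1, cdt1 and wee2 were not. How many cell division genes that class holds was not counted.

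Stress and immediate early genes passed 4-fold about as often as all genes. Of the 26 measured, 3 were female-higher and 4 male-higher, beside 26.6% of all genes past that fold in either direction, and the median was -0.36. The immediate early gene fos stood at 397 TPM in female heart, 4.17 TPM in male heart and 341 TPM in lung, and ier2 at 376, 44.5 and 386 TPM. The heat shock gene hspa1a stood at 26.7 TPM in female heart and 237 TPM in male heart. The partners of fos in the AP-1 dimer, jun and jund, were among the male-higher genes at 164 and 119 TPM in male heart against 32.2 and 14.7 TPM, chosen after their values were seen. Ribosomal protein genes were lower in female heart in 54 of 55 cases with a median of -1.07, of which 2 were male-higher.

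**Figure D5:**
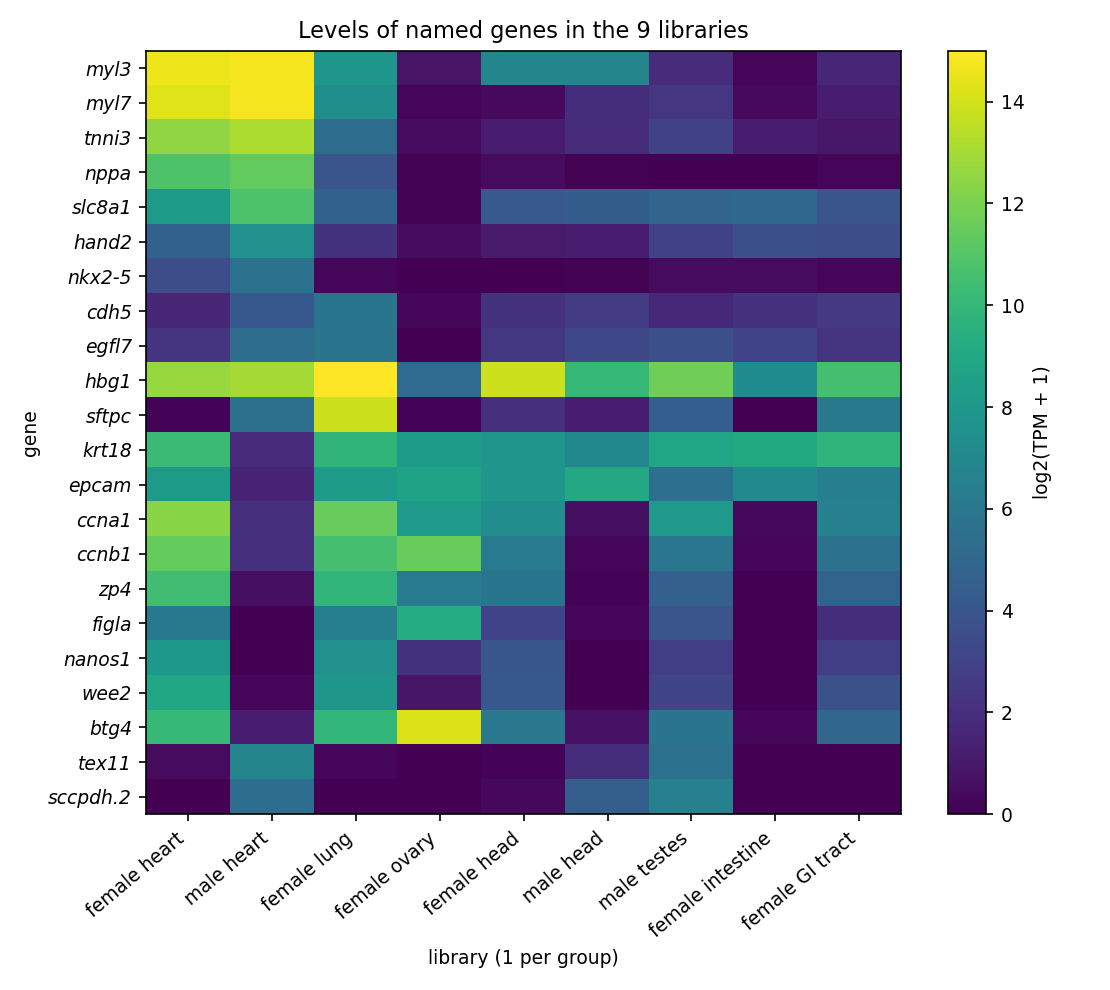
Levels of 22 genes named in the text in each of the 9 libraries, as log2(TPM + 1) on a colour scale from 0 (dark) to 15 (yellow), 1 library per column. The rows of myl3, myl7, tnni3 and nppa are bright in both hearts. Those of slc8a1, hand2 and nkx2-5 are darker in female heart than in male heart, and hand2 and nkx2-5 are dark there. The rows from ccna1 to btg4 are brighter in female heart and lung than in male heart, male head and intestine, where they are dark. The genes tex11 and sccpdh.2 are seen in male libraries.

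The heads give the only other pair of the same tissue from both sexes. Oocyte and cell division genes had a median log2 ratio of female over male of 1.15 there, with 43 of 118 at least 4-fold higher in the female and 0 in the male. The cardiac lists had a median of -0.19 in the heads, with no gene past 4-fold in either direction. The share of all genes past 4-fold between the heads was not counted, so these counts lack that background. At 56.5 TPM of zp4, against 0.10 TPM in male head, female head held the egg coat gene at a small part of the 1366 TPM of female heart, in the same direction between the sexes.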

How the data were processed

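The authors deposited a table of counts per gene and a table of TPM, each with 1 column per library and 30331 rows. The submitters' processing notes name RSEM 1.3 and deepTools without roles. Which aligner, build and annotation were used is not given in the sources used here, and no coordinates are printed. The deposited counts are taken for RSEM's expected counts after rounding, since 1272 cells hold a count of 0 and a TPM above 0. The deposited TPM values sum to 1000000 per library, have 2 decimals and are per length. Reads without a gene name (1.78% of counts in female heart, 1.68% in male heart) were left out. Of the 30330 other rows 15274 carry a symbol, and 14606 of these match the RefSeq table of UCB_Xtro_10.0, used for names only.

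Tissue and sex labels define the groups, and nothing says whether the female libraries share an animal. The log2 ratio of TPM + 1 was computed for genes with at least 1 TPM in either heart, and 4-fold was the limit of a call. Fold changes on this scale understate the change of low genes. Exact binomial 95% intervals on counts, and a floor of 3 counts per library (0.0895 and 0.0877 counts per 1000000 in female and male heart), cover counting error only. Alternatives used edgeR 4.0.16 (TMM, prior count 2), DESeq2 1.42.0, other pseudocounts, filters, fold limits and class limits. Python 3.11.15, pandas 2.3.3, scipy 1.17.1 and R 4.3.3 were used.

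Named genes are those with a symbol and at least 20 TPM in the higher heart that had the 10 largest ratios per direction in neither class, the 10 largest female-higher in the classes, and each list's 5 most abundant members. Defining cell type markers are also named, and other genes are marked as chosen after their values were seen. Some genes that the rule names are not reported here. The comparison and the 31 lists (692 of 783 symbols found) were chosen with earlier results of these data known.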

Additional observations from a re-analysis of the deposited data

Results flagged for a closer look

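Of the 3875 genes at least 4-fold apart between the hearts, 21 were at least 4-fold apart between the heads in the opposite direction. Of these, 6 had a symbol and at least 20 TPM in the higher heart. The number of all genes past 4-fold between the heads, or in the same direction in both pairs, was not counted. The 21 therefore cannot be called many or few. The difference between the pairs was not tested, since each tissue and sex has 1 library. The red cell genes hba3, hbd and epor, the last encoding the erythropoietin receptor, had log2 ratios of female over male of -2.05, -2.35 and -2.12 in heart and 3.31, 2.21 and 2.67 in head. The blood cell factor gene lmo2 stood at -2.06 in heart and 2.81 in head. The thrombocyte tubulin gene tubb1 stood at -2.48 in heart and 2.28 in head. The cell cycle gene prr11 went the other way, at 5.14 in heart and -2.31 in head.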

How the results depend on the processing

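All values come from 1 library per heart, so leaving out a library was not possible. No paired analysis was possible because each group has 1 library. None of the named genes past 4-fold changed sign under any alternative, but the counts moved. Female-higher genes numbered 1778 with a pseudocount of 5, and 5609 and 1499 at fold limits of 2 and 8. Male-higher genes numbered 1976 and 290 with pseudocounts of 0.1 and 5, 2337 with TMM, 3375 with DESeq2 size factors, and 3287 and 133 at fold limits of 2 and 8. Female-higher genes in the classes numbered 1131 at a fold limit of 8 and 854 at a class fold of 10. Those in neither numbered 1957 and 466 with pseudocounts of 0.1 and 5, 1849 after rescaling, 3343 and 368 at fold limits of 2 and 8, and 610 and 2143 at class folds of 2 and 10. Male-higher genes in the classes numbered 94 and 17 with pseudocounts of 0.1 and 5, 114 with TMM, 160 with DESeq2, 31 after rescaling, 163 and 4 at fold limits of 2 and 8, and 97 and 11 at class folds of 2 and 10. Those in neither numbered 1882 and 273, 2223, 3215, and 3124 and 129 in the same order of pseudocounts, scalings and fold limits. Listed cardiac genes higher in male heart numbered 24 with a pseudocount of 5 and 65 with DESeq2. The 1 listed cardiac gene that became female-higher with a pseudocount of 0.1, TMM and rescaling was edn1. Oocyte genes higher in male heart numbered 1 with a pseudocount of 0.1 (izumo1r), 2 with TMM (with rbpms2) and 5 with DESeq2 (with cdc25b, stau1 and tob2). Apart from the class and fold limits, the cause of these moves was not tested. Of all calls 66.2% and 86.0% were female-higher with pseudocounts of 0.1 and 5, and 63.1% and 91.9% at fold limits of 2 and 8. Restricting to genes with a symbol, an alternative chosen after seeing the data, gave 78.5%.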
